A study of Rattus norvegicus with 6 samples.

Results

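The cytosolic ribosomal protein genes of rat were taken as the listed symbols that begin with Rpl or Rps followed by a number, with an optional letter or copy suffix, together with Rplp0, Rplp1, Rplp2 and Rpsa and without the kinases named after Rps6. The rule found 81 genes among 15677 listed symbols. They comprise 43 genes for proteins of the large subunit, 31 for proteins of the small subunit, 3 for the stalk of the large subunit and 4 paralogs or copies (Rpl3l, Rpl22l1, Rpl36al and Rps4y2). The filter on low counts was passed by 80 of the 81, and Rpl3l was the exception.

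RNA came from pancreatic duct glands, small mucin-producing pouches of the large pancreatic ducts, which were recognised by morphology and cut out by laser capture microdissection. The study compared 3 libraries of wild-type Sprague-Dawley rats, named WT26, WT1 and WT4 after their titles, with 3 libraries of pre-diabetic HIP rats of the same strain, named HIP30, HIP2 and HIP3. The transgene of HIP rats encodes human islet amyloid polypeptide and is expressed in beta cells of the islets, and the rats serve as a model of type 2 diabetes. Age, sex and transgene dose are not given in the sources used here. Whether every library is from a different rat is not stated either, and p-values then reflect only how far these libraries spread, which may be technical. In whole pieces of tissue, fewer cells of a type and less RNA per cell cannot be told apart.

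A ribosome holds 1 copy of most of its proteins, and cells make these proteins in matched amounts, with any surplus degraded. In mammals the transcripts of nearly all of them start with a cytosine followed by an unbroken run of pyrimidines, the 5′ terminal oligopyrimidine (TOP) tract, through which mTORC1 and the binding protein Larp1 set how strongly they are translated. Each protein is encoded by 1 active gene in most cases, and the genome holds many processed copies of it, which share reads with their parent.

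Sequences around the transcription start were available for 65 of the 81 genes (RefSeq annotation of the GRCr8 build). The sites of 7 genes are shown because the results below turn on them: Rps27 and Rpl27a had the widest spread between libraries among well-measured genes, Rpl10 went the other way, Rpl3 and Rpl5 were lower in every HIP library, and Rpl22 is set beside its paralog Rpl22l1. Each line gives 30 bases centred on the annotated start, 5′ to 3′ on the strand of the gene, with the longest run of pyrimidines in capitals.
Rps27 (chr2:177964592-177964621, minus strand): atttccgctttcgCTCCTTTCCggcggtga
Rpl27a (chr1:172974558-172974587, plus strand): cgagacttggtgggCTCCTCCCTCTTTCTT
Rpl10 (chrX:157205835-157205864, plus strand): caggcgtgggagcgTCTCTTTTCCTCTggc
Rpl3 (chr7:113507976-113508005, minus strand): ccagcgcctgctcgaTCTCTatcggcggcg
Rpl5 (chr14:1995211-1995240, minus strand): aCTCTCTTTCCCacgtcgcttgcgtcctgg
Rpl22 (chr5:168117946-168117975, plus strand): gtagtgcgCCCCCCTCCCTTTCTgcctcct
Rpl22l1 (chr2:113683181-113683210, plus strand): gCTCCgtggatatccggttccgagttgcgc

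A pyrimidine run of at least 8 bases lay between 10 bases before and 20 bases after the annotated start in 41 of the 65 genes (63.1%). The same was found in 10.4% of 8828 tested genes with a promoter sequence and in 12.4% of 27457 symbols of the annotation. The lines above show another window, so capitals and counted runs can differ. Rpl5 has 11 bases in capitals but a run of 7 in the searched window, and was counted without a run. Rpl27a has 16 in capitals and a run of 20 in the searched window. In the lines above Rpl10, whose level went against the family, has a longer run than Rps27, which led it. The window of Rpl22 holds a run of 15 pyrimidines and that of Rpl22l1 none longer than 4. Such a match describes the sequence at the annotated start and was not tied to a measured start site.

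Reads scaled to a common library total (CPM), adjusted by TMM factors, gave the level in each library. Wherever 3 values are given for a group, they are in the order WT26, WT1, WT4 or HIP30, HIP2, HIP3. Reads on all 81 genes summed to 25573 CPM in WT26, 17386 in WT1 and 16806.5 in WT4, while HIP30 had 22408, HIP2 15234 and HIP3 16495. The groups overlapped widely, at 19922 ± 4903 CPM in wild type and 18046 ± 3830 CPM in HIP (SD, n = 3). The highest library of each group was the one with the higher title number, WT26 and HIP30. As a share of all reads the family took 2.44% in WT26 and 2.43% in HIP30, against 1.55% to 1.75% in the other libraries. The HIP sum was lower by 1876 CPM with all libraries, but higher by 958 CPM without WT26. It stayed lower when any other library was left out, with differences from -3952.69 CPM without HIP30 to -457.783 CPM without HIP2. Leaving out WT26 or HIP30 takes the higher library from 1 group only. With WT1, WT4, HIP2 and HIP3 alone the difference was -1175.52 CPM.

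**Figure D1:**
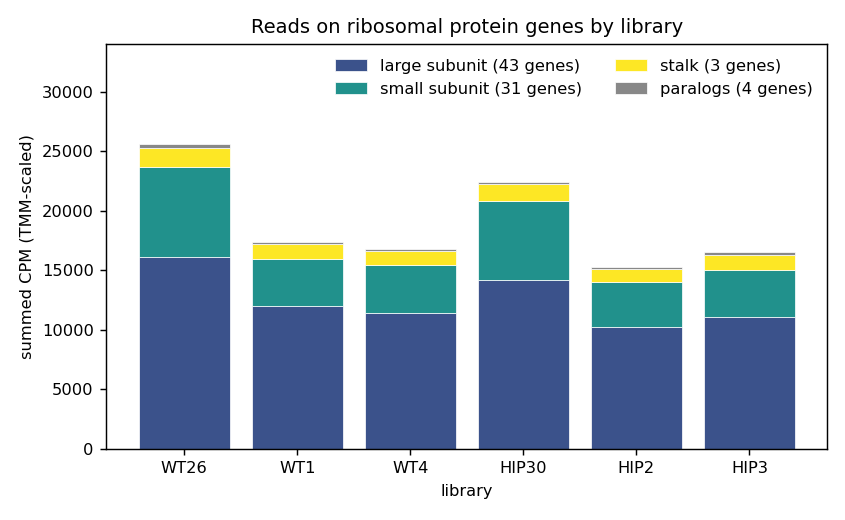
Stacked bars give the summed level (CPM, TMM-scaled) of ribosomal protein genes in each of 6 libraries, split by the part of the ribosome. WT26 (25573 CPM) and HIP30 (22408 CPM) stand above the other libraries, which lie between 15234 and 17386 CPM.

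The split of summed reads between the subunits also differed between libraries. The 31 genes of the small subunit summed to 7484 CPM in WT26 and 6695 in HIP30, but to 3780.5 to 4102 in the other libraries. They held 29.3% and 29.9% of the family's reads in those 2 libraries and 23.1% to 24.8% elsewhere. The large subunit held 63.1% in both and 66.9% to 68.8% elsewhere. These sums weigh abundant genes most. Gene by gene, the median log2 difference of WT26 and HIP30 from the other libraries was 0.67 for the large and 0.56 for the small subunit. The stalk genes ran from 1097 CPM in HIP2 to 1664 CPM in WT26, and the 4 paralogs took 0.911% to 1.11% of the family's reads. Levels in CPM depend on transcript length and shared copies, and no per-length level was computed here, so they are not ranked between genes.

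Wild-type and HIP libraries were compared to ask whether the glands of rats with stressed beta cells differ in this family. Of the 80 tested genes, 0 passed limma's test at a Benjamini-Hochberg adjusted p under 0.05, as did 0 of all 12102 tested genes (0%). Limma-voom likewise called 0. The smallest adjusted p in the family was 0.691. At an unadjusted p under 0.05 only Rpl30 was higher and only Rpl22l1 lower, 1.25% of the family in each direction, against 3.29% and 3.26% of all tested genes. Those shares do not exceed the background. The count of 2 became 0 without WT26 or without HIP30 and 1 without WT1, HIP2 or HIP3. Of all tested genes, 6.54% reached that level with all libraries. The share was 2.71% without WT26, 2.21% without HIP30, 2.62% without WT1, 1.91% without HIP2 and 14.9% without HIP3. With a term for the 2 series of title numbers (26 and 30 against 1 to 4), Rps9 joined Rpl30 and Rpl22l1 at that level. These 3 genes stood beside 7.95% of all tested genes, again with no adjusted call.

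Rpl30, a large-subunit protein whose yeast counterpart binds its own transcript, stood at 12.5, 19.3 and 28.2 CPM in wild type and 51.2, 28.6 and 34.1 CPM in HIP. The groups did not overlap, but WT4 and HIP2 were nearly equal and the highest library was HIP30. The log2 difference was 0.95 (SE 0.36, adjusted p = 0.691 in limma). It was 2.02 between HIP30 and WT26, each a single library, and 0.42 between the means of the other 2 libraries per group.

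Rpl22l1 is the paralog that can take the place of Rpl22 in the large subunit, and Rpl22 is known to hold its transcript down in mouse cells. Rpl22l1 measured 96.8, 82.1 and 70.3 CPM in wild type and 61.5, 58.0 and 61.7 CPM in HIP. Every wild-type library lay above every HIP library, and the HIP libraries were close together. The log2 difference was -0.45 (SE 0.19, adjusted p = 0.691 in limma). Rpl22 itself stood at 282, 132 and 142 CPM in wild type and 218, 127 and 154 CPM in HIP, with overlapping groups and a log2 difference of -0.10 (SE 0.33). The parent and its paralog thus differed in which libraries were high: Rpl22 followed the title numbers and Rpl22l1 did not.

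Besides Rpl22l1, 3 genes were lower in each HIP library than in each wild-type library: Rpl3, Rpl5 and Rps9. This order is for TMM-scaled levels and was not tested under other scalings. The 4 make up 5% of the family, against 4.27% of all tested genes, and Rpl30 as the only gene with the opposite order makes up 1.25%, against 5.27%. Rps9, which joins the small subunit early in its assembly, stood at 81.3, 50.1 and 56.9 CPM in wild type and 50.03, 36.5 and 44.6 CPM in HIP. Its log2 difference was -0.50 (SE 0.24), and WT1 and HIP30 were almost level. Rpl3, a protein near the peptidyl transferase centre, stood at 1152, 1048 and 925 CPM in wild type and 832, 844 and 917 CPM in HIP, a log2 difference of -0.26 (SE 0.20). Rpl5 carries 5S ribosomal RNA into the large subunit together with Rpl11, and both bind Mdm2, the inhibitor of p53, when assembly stalls. Rpl5 stood at 997, 1085 and 838 CPM in wild type and 810, 837 and 781 CPM in HIP, a log2 difference of -0.26 (SE 0.20). Its levels in WT4 and HIP2 were almost equal. Rpl11 did not share the order of Rpl5: it stood at 750, 327 and 333 CPM in wild type and 610, 295 and 286 CPM in HIP, with overlap.

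**Figure D2:**
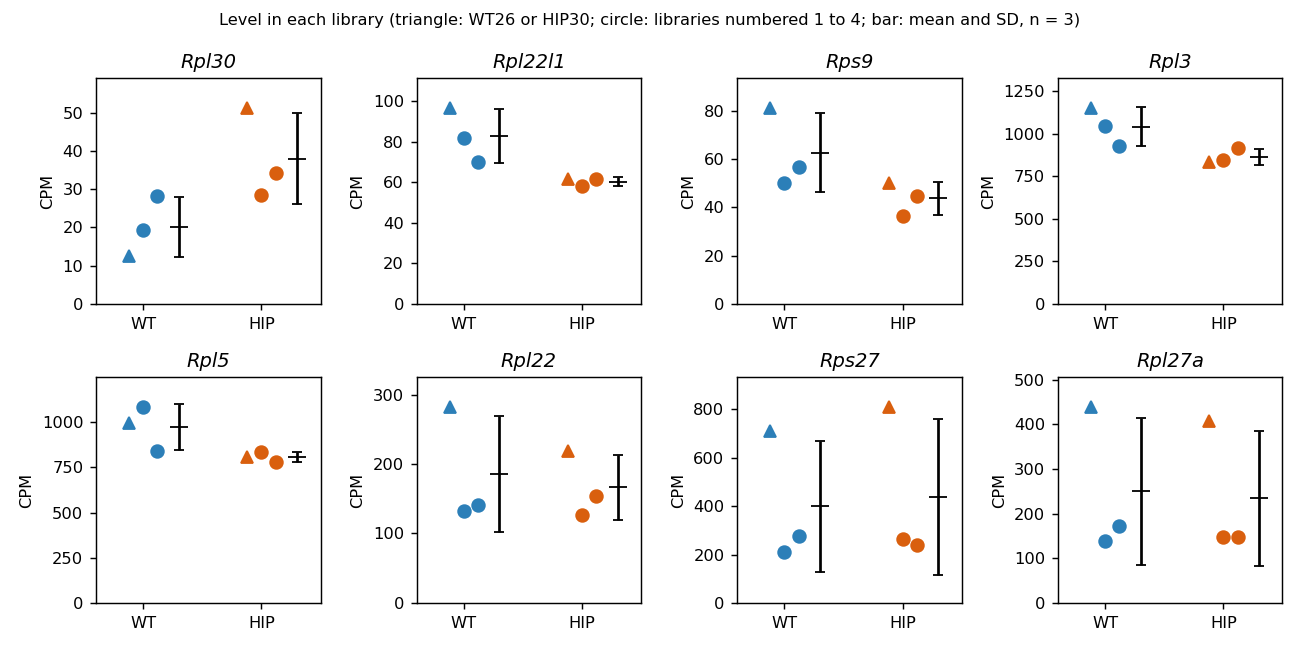
Points give the level (CPM) of 8 genes in each library, triangles for WT26 and HIP30 and circles for the libraries numbered 1 to 4, with the mean and SD (n = 3) of each group beside them. Rpl30 is higher and Rpl22l1, Rps9, Rpl3 and Rpl5 lower in every HIP library, whereas Rpl22, Rps27 and Rpl27a separate triangles from circles in both groups.

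Small negative differences were common across the family. HIP was lower for 60 of 80 genes (75%), against 48.9% of all tested genes, with a median log2 difference of -0.10 against 0.01 over all genes. When scaled by library totals instead, the count was 48 of 80, against 40.4% of all genes. By role, the difference was negative for 36 of 43 large-subunit genes (median -0.14), 19 of 31 small-subunit genes (median -0.05) and each of the 3 stalk genes. The direction depended on which library was left out. Without WT26 the median was 0.18 with 25 genes negative, against 48.4% of all tested genes. Without HIP2 it was 0.05 with 34 negative, against 48.7%. The median stayed negative without WT1 (71 of 79 genes negative, against 49.7%) or WT4 (69 of 79, against 50.4%). It also did without HIP30 (74 of 80, against 49.5%) or HIP3 (45 of 79, against 48.5%). Leaving out WT26 or HIP30 takes the higher library from 1 group only. Within the title numbers, HIP30 was below WT26 for 57 of 80 genes (median -0.21), against 49% of all tested genes. The mean of HIP2 and HIP3 was below that of WT1 and WT4 for 53 (median -0.05), against 50.2%. Both held for 41 genes, but the share of all tested genes with both was not computed, so no agreement is read from it.

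Other genes with the lowest p-values in either direction showed overlapping groups. Rpl35, which sits at the exit of the protein tunnel, stood at 513, 576 and 535 CPM in wild type and 415, 442 and 533 CPM in HIP, where HIP3 lay inside the wild-type range. Rpl12, at the base of the stalk, spread as much within groups as between them, at 52.2, 56.1 and 109 CPM against 131, 102 and 54.5 CPM. Rps24, Rps28 and Rps4x had differences of 0.14, 0.18 and 0.12. The copy Rps4y2 stood at 4.65, 2.64 and 4.26 CPM in wild type and 8.75, 6.35 and 2.70 CPM in HIP, a log2 difference of 0.50 (SE 0.54).

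The stalk proteins recruit elongation factors to the ribosome. Rplp0, their anchor, stood at 1420, 1139 and 1032 CPM in wild type and 1164, 998 and 1233 CPM in HIP. Rplp1 stood at 240, 84.6 and 108 CPM and 205, 96.6 and 94.5 CPM, so that WT26 and HIP30 were high in both groups. Rplp2 was covered thinly, at 4.05, 2.70 and 2.92 CPM and 4.13, 2.32 and 2.27 CPM. Differences between the groups were -0.07, -0.08 and -0.18 on the log2 scale, each smaller than its SE of at least 0.23. With library totals the difference of Rplp0 was 0.00033, so its sign is not settled.

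For 4 genes of further interest the difference was below its standard error. Rps6, the target of the S6 kinases downstream of mTORC1, stood at 101.2, 113 and 86.9 CPM in wild type and 76.1, 86.5 and 113 CPM in HIP (log2 difference -0.14, SE 0.21). Rpsa, also known as the laminin receptor precursor, had a difference of -0.08 (SE 0.37). Rps3, which lines the entry of the mRNA channel, had -0.15 (SE 0.36). Rps27a, made as a fusion with ubiquitin, had 0.06 (SE 0.29) at 18.3 CPM on average. The median half-width of the 95% confidence interval of a gene's log2 difference was 0.77, and the interval lay within 1 log2 unit of 0 for 48 of the 80 genes. For the other genes a change of 2-fold in at least 1 direction was not outside the interval. These SEs and intervals are from the fit without a term for the title numbers, so differences between the 2 series count as spread. With that term the unadjusted p in limma went from 0.52 to 0.49 for Rps6 and from 0.83 to 0.66 for Rpsa. It went from 0.69 to 0.37 for Rps3 and from 0.84 to 0.79 for Rps27a. Intervals with that term are not given here.

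A few genes were too thinly covered to compare. Rps19, mutated in Diamond-Blackfan anaemia, averaged 0.619 CPM, with a log2 difference of -0.07 (SE 0.71). Rpl7a averaged 0.798 CPM and Rpl38 3.90 CPM. Rpl3l, the form of Rpl3 found in striated muscle, had 2 reads in WT26, 1 in WT1, 1 in WT4 and none in the HIP libraries. A count of 0 allows up to 3 reads, or 0.182 to 0.184 CPM, so no fold is given; this limit covers counting error only. The current annotation lists 902 pseudogenes and 201 like loci named after these genes, with 0 to 36 pseudogenes and a median of 11 per gene. Reads that fit a copy as well as its parent could not be separated here, so a low or high value of 1 gene is uncertain for that reason.

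A second comparison set the libraries by the numbers in their titles, 26 and 30 against 1 to 4. Of the 80 genes, 58 (72.5%) were higher in both WT26 and HIP30 than in each of WT1, WT4, HIP2 and HIP3, against 14.5% of all tested genes. Another 3 genes, Rpl10 among them, were lower in both (3.75%, against 11.6%), and 19 overlapped. This split rests on the titles only and was chosen with earlier results known; no label calls it a batch. It sets 2 libraries against 4. At an unadjusted p under 0.05 in limma with a term for genotype, 42 genes (52.5%) were higher, against 8.74% of all genes. Only Rpl10 was lower (1.25%, against 7.51%). None of the 80, and 0 of the 12102 genes tested (0%), passed after adjustment; the smallest adjusted p was 0.147. The median log2 difference was 0.62, with 70 of 80 positive, while that of all tested genes was -0.05.

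**Figure D3:**
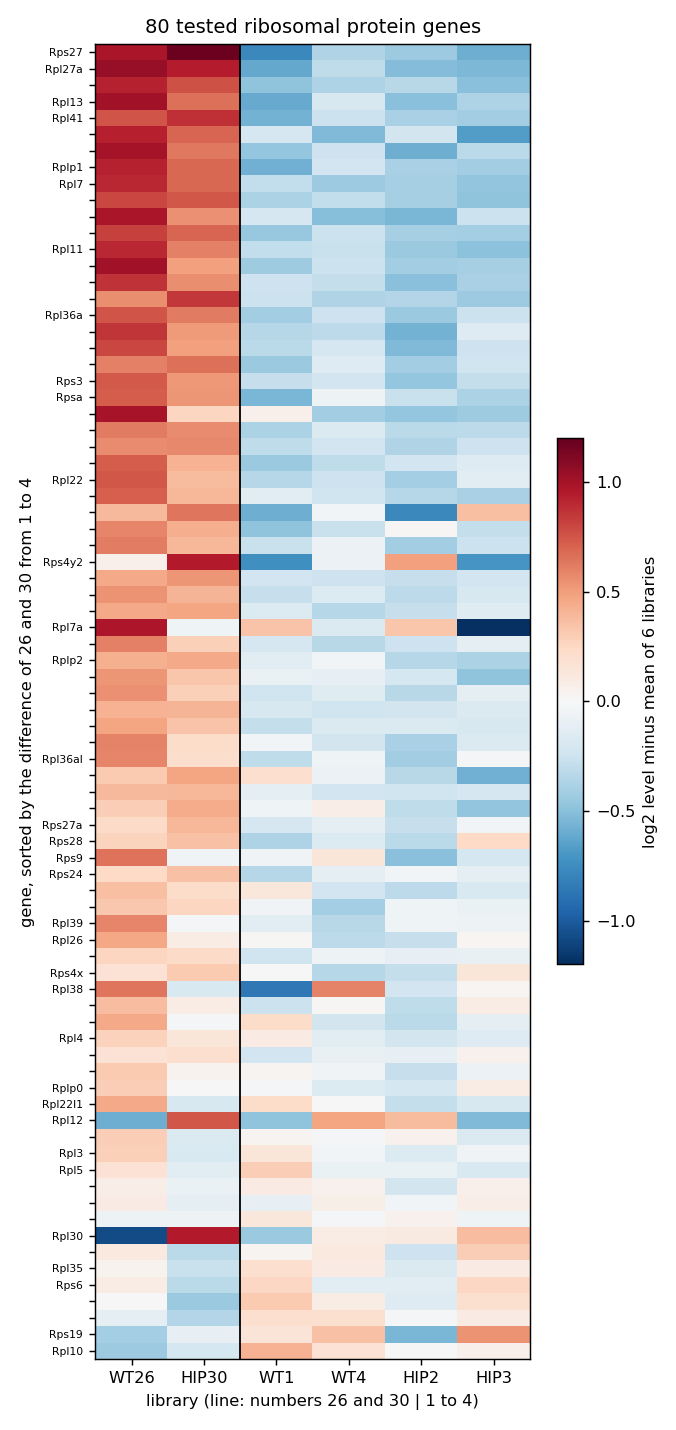
Each row is 1 of the 80 tested genes and each column a library; colour gives the log2 level minus the gene's mean over 6 libraries, and rows are sorted by the difference of WT26 and HIP30 from the other 4. The left columns are red for most rows, 58 of 80 lying above all 4 other libraries, and turn blue or mixed in the lowest rows, down to Rpl10. Row names are given for genes described in the text.

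The genes that differed most came from both subunits. Rps27, a zinc-finger protein of the small subunit, stood at 710 CPM in WT26 and 811 CPM in HIP30, and at 210, 279, 265 and 239 CPM in WT1, WT4, HIP2 and HIP3. The means differed 3.06-fold (log2 difference 1.62, SE 0.17, adjusted p = 0.147 in limma). Rpl27a stood at 439 and 408 CPM against 139, 172, 148 and 147 CPM in the same order, a 2.80-fold difference. Both genes gave the same picture in either group: 1 library far above the other 2, which were close together. Rpl13, of the large subunit, stood at 82.2 and 64.6 CPM against 26.8, 35.6, 28.8 and 31.5 CPM. Rpl41, which encodes a very short basic peptide, stood at 1446 and 1572.5 CPM against 578, 717, 653 and 641 CPM. In all, 18 genes reached a 2-fold difference, 10 of the large subunit, 7 of the small subunit and Rplp1. The share of all tested genes past that fold was not computed, so this count has no background. Genes higher without overlap numbered 31 of 43 for the large and 24 of 31 for the small subunit, where all tested genes gave 14.5%.

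Among genes chosen for roles outside the ribosome or for a paralog, several followed the same order and others did not. Rps3 stood at 1185 CPM in WT26 and 1022 CPM in HIP30 and at 517 to 606 CPM elsewhere. Rpsa stood at 608 and 529 CPM against 251 to 352 CPM. Rpl7 of the large subunit stood at 1029 and 889 CPM against 397 to 449 CPM. Rpl11 was 2.19-fold higher in the means, whereas its partner Rpl5 differed 1.02-fold. Rps6 and Rps19 had lower means in WT26 and HIP30, at 0.888 and 0.701 times those of the other libraries (log2 differences -0.17, SE 0.20, and -0.38, SE 0.75), with overlap.

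Members of a paralog pair followed this order to different extents. Rpl36a was 2.04-fold higher in WT26 and HIP30 and its copy Rpl36al 1.51-fold. Rpl22 was 1.80-fold higher, but Rpl22l1 1.16-fold with overlap. Rps4x, the X-linked gene, was 1.28-fold higher without overlap and Rps4y2 1.68-fold with overlap. Rpl39 and Rpl26, whose copies were not analysed here, were 1.38-fold and 1.34-fold higher.

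A minority of genes stayed level or went the other way. Rpl10, among the last proteins to join the large subunit, stood at 584 CPM in WT26 and 680 CPM in HIP30, below 1053, 892, 787 and 824 CPM in WT1, WT4, HIP2 and HIP3 (log2 difference -0.49, SE 0.20). Rpl3 and Rpl5 differed 1.06-fold and 1.02-fold. Rpl4, which lines the protein tunnel, was 1.24-fold higher without overlap, and Rplp0 1.17-fold with overlap.

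**Figure D4:**
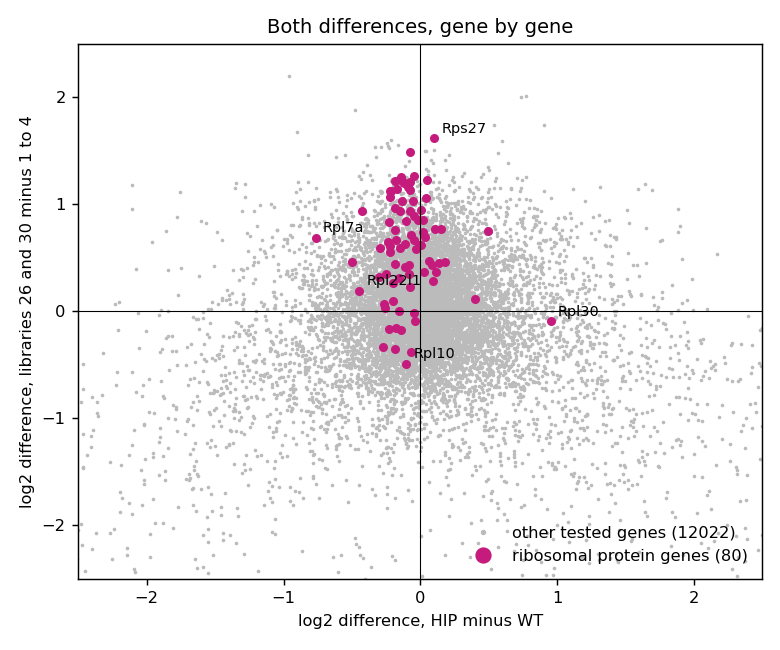
Each point is a tested gene, with its log2 difference of HIP from wild type on the x axis and of WT26 and HIP30 from the libraries numbered 1 to 4 on the y axis; both axes end at 2.5 and 346 genes lie outside. Ribosomal protein genes (80 larger points) have medians of -0.10 on the x axis and 0.62 on the y axis, with Rpl30 and Rpl7a at the sides, Rps27 at the top and Rpl10 at the bottom.

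Levels of the family were alike in profile across libraries. Over the 80 genes, Pearson's r of log2 levels between pairs of libraries ran from 0.971 to 0.995, and over the 12022 other tested genes from 0.803 to 0.965. The lowest of the latter was the pair of WT26 and HIP30, for which the 80 genes gave 0.987. These values are across genes, which are not independent replicates, and are given as a description. The median SD of a gene over the 6 libraries was 0.38 on the log2 scale both for the family and for all tested genes.

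Genes with and without a pyrimidine run or a snoRNA gene had close medians on the contrast of title numbers. The median log2 difference of WT26 and HIP30 from the others was 0.65 for 40 tested genes with a pyrimidine run at the start and 0.64 for 24 without one. It was 0.64 for 30 genes with a snoRNA gene inside them and 0.63 for 49 without. Across genes, Spearman's rho of this difference was 0.04 with the number of pseudogenes and also 0.04 with the mean CPM, given as descriptions. In the promoter sequences, the letters CTCTTT stood on either strand in 49.2% of the 65 genes and 20.0% of tested genes, and CTTTCC, which can overlap it by shared pyrimidines, in 49.2% and 26.8%. The letters CCGGAAG, as bound by ETS factors, stood on either strand in 30.8% and 16.6%, and TATAAA in 10.8% and 7.42%. A match is a stretch of letters and not a binding site.

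Other ribosome components showed how far the pattern reached. The 3 measured components whose symbols fall outside the naming rule, Fau and Gnb2l1 (the ribosome-bound Rack1) among them, were each higher in WT26 and HIP30 than in every other library, with a median log2 difference of 0.80. Fau, which encodes a small-subunit protein fused to a ubiquitin-like peptide, stood at 63.7 and 68.7 CPM against 34.4 to 39.6 CPM. Of 67 tested mitochondrial ribosomal proteins, 25 (37.3%) were higher without overlap, against 14.5% of all tested genes, with 58 positive differences and a median of 0.21. Between HIP and wild type 44 of those 67 were negative, with a median of -0.07, and 0 reached an unadjusted p under 0.05.

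Translation factors and other TOP transcripts were mixed. Some genes stand in more than 1 list, Gnb2l1 among them, so the counts by list are not independent. Of 8 tested elongation factors, 4 (50%) were higher in WT26 and HIP30 without overlap (median 0.41), among them Eef1g at 439 and 350 CPM against 238 to 305 CPM. Eef1a1, which delivers aminoacyl-tRNA and is a TOP transcript, did not follow, at 701 and 826 CPM against 688 to 1035 CPM. Of 21 other TOP transcripts 10 (47.6%) were higher without overlap (median 0.25), while Pabpc1, the poly(A)-binding protein, stood at 1246 and 787 CPM against 1245 to 1929 CPM. Of 38 initiation factors 13 (34.2%) were higher without overlap, with a median of 0.00, and of 88 ribosome assembly factors 24 (27.3%), with a median of 0.04. The share among all tested genes was 14.5%. Transcripts of the ribosome's own proteins had a higher median than those of its assembly factors in the same libraries, 0.62 against 0.04; this gap was not tested.

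**Figure D5:**
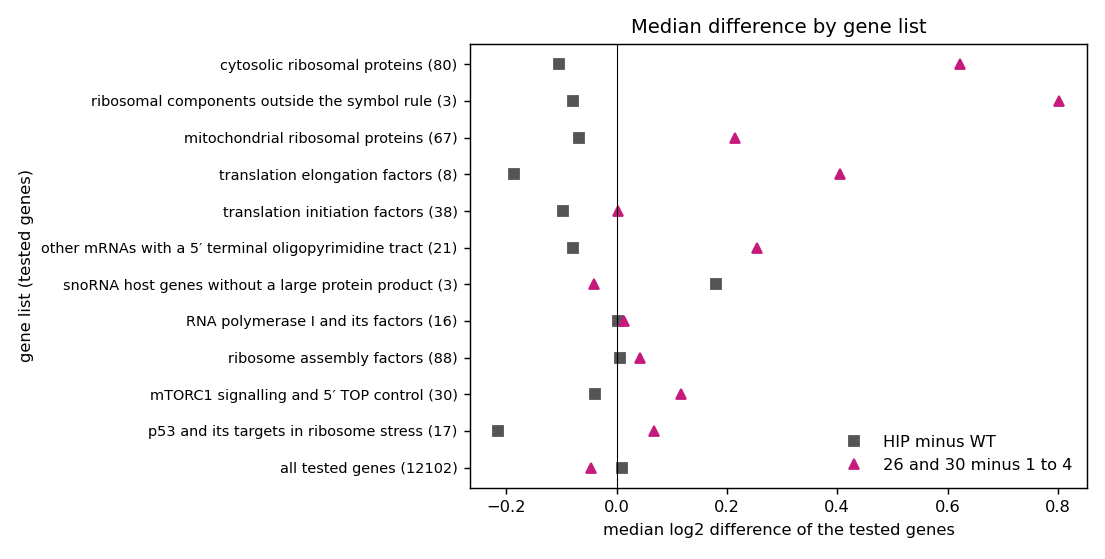
For each gene list (number of tested genes in brackets) the square gives the median log2 difference of HIP from wild type and the triangle that of WT26 and HIP30 from the libraries numbered 1 to 4. Cytosolic ribosomal proteins and the components under other names stand at 0.62 and 0.80 on the second measure, and all tested genes at -0.05.

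Between HIP and wild type, none of the related lists held a gene past the adjusted threshold in limma. Among the 88 assembly factors 45 differences were positive and 43 negative, and 0 reached an unadjusted p under 0.05. For RNA polymerase I, which makes ribosomal RNA, 2 of 16 genes were higher at that level, which 3.29% of all tested genes reached in this direction and 3.26% in the other: Taf1c, at 16.5, 21.1 and 27.8 CPM against 44.9, 35.0 and 29.9 CPM, and Polr1b, at 24.0, 26.9 and 22.4 CPM against 38.4, 39.6 and 29.6 CPM. Neither gene's groups overlapped. In the mTORC1 list Sesn2, a stress-induced inhibitor of the kinase, was the only one of 30, at 18.9, 18.4 and 29.4 CPM in wild type and 39.8, 38.8 and 32.1 CPM in HIP. Mtor itself had a difference of -0.07 (SE 0.18). Vim was the only one of the 21 TOP transcripts, at 67.5, 75.1 and 95.6 CPM against 43.3, 53.4 and 58.2 CPM, and it is also a gene of fibroblasts. Snhg11 was the only one of 3 snoRNA hosts, with no read in WT26, 1.60 CPM in WT1, 6.32 CPM in WT4 and 8.39 to 19.5 CPM in HIP.

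Targets of p53, which Rpl5 and Rpl11 can activate through Mdm2, stood in both directions at that level, 2 of 17 higher and 2 lower, where all tested genes gave 3.29% and 3.26%. Cdkn1a, the cell cycle inhibitor p21, measured 176, 132 and 89.3 CPM in wild type and 44.6, 52.0 and 83.0 CPM in HIP. Its log2 difference was -1.14 (SE 0.32, adjusted p = 0.691 in limma), and the groups did not overlap. Phlda3 was also lower (-1.40, SE 0.56), while Zmat3 (0.51) and Sesn2 (0.75) were higher; the remaining 13 of 17 tested genes did not reach an unadjusted p under 0.05, Mdm2 among them (-0.05, SE 0.17).

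Several properties of the libraries moved with the title numbers. The ribosomal RNA gene Rn45s took 2.10% and 2.29% of reads in WT26 and HIP30 and 2.72% to 4.88% elsewhere. Beta cell markers had no read in WT26 and HIP30 (7 of 7 at 0, Ins1 and Ins2 included), against sums of 93.9 to 11317 CPM elsewhere, and 8 of 11 acinar markers were at 0 in both, with sums of 38.8 and 38.0 CPM against 25.4 to 140 CPM elsewhere. Total reads did not move with them: WT26 had the most, 17574682, and HIP30 the fewest, 15141136. Duct epithelium markers, with all 8 measured in each library, summed to 10352 to 26773 CPM in wild type and 10220 to 13008 CPM in HIP. Fibroblast markers summed to 3010 to 5371 CPM in wild type and 441 to 3357 CPM in HIP, markers of dividing cells to 1656 to 2699 and 98.7 to 2500 CPM, and leukocyte markers to 134 to 630 and 414 to 2300 CPM. Single genes weighed heavily in these sums: Mpeg1 gave 1929 CPM in HIP30, 1945 in HIP2 and 0 in WT26, and Fn1 gave 3925 CPM in WT26 and 0 in HIP30. HIP30 had 8 of 12 dividing-cell markers at 0 and WT26 none. The part of these properties in the ribosomal protein levels was not tested.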

How the data were processed

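RNA sequencing of laser-captured pancreatic duct glands gave 6 libraries, 3 wild type and 3 HIP, grouped by genotype label. Per the submitters' processing notes the tools included STAR, HTSeq, edgeR and limma with build rn5, without versions or order. Per the labels' protocols, RNA isolation and library preparation used kits for very small inputs. The strand setting of the counting, not given in the sources used here, is unknown. A log2 value per gene was deposited, which by its values is CPM plus a prior worth 0.25 reads. Whole reads were recovered for 100% of values within 0.1 reads. Totals ran from 15141136 to 17574682 reads, so 1 read was worth 0.0569 to 0.0660 CPM.

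TMM factors (trimming 30% of log ratios and 5% of levels) were 0.933 to 1.09. Genes with at least 10 reads at the median library in 3 libraries and 15 in total were tested, which left 12102. The 4 rows of duplicated symbols were left out. The test was limma 3.58.1 with an intensity trend in R 4.3.3, on log2 of CPM plus 0.121 (2 reads), with Benjamini-Hochberg adjustment over all tested genes at 0.05. Differences on this scale understate changes of low genes. The deposited unit is log2, so limma was the main test; planned count tests were not run. The second contrast sets the libraries titled 26 and 30 against those titled 1 to 4, with a term for genotype in the fit. The main fit of HIP against wild type had no term for the title numbers. Counts and SEs of these contrasts thus come from unlike models. The steps were tested on simulated data.

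The gene family, the related lists and the tests were chosen with earlier results of these data known. Genes were named by a rule: the 6 with the lowest p in each direction, the stalk genes, paralog pairs, the 5 with the highest and the 5 with the lowest mean CPM, the 5 with the largest SD over libraries, 7 genes with known roles outside the ribosome, Rn45s, and up to 2 genes with the lowest p of each related list. A part of the rule on levels per coding length was not applied, as lengths were not used here. Some genes the rule gives are not reported here. Sequences are from RefSeq's GRCr8 annotation, matched by symbol, and no coordinates of the authors' build were used. Figures were drawn with matplotlib 3.10.9 in Python 3.11.15.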

Additional observations from a re-analysis of the deposited data

How the results depend on the processing

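Alternatives were other scalings, pseudocounts and filters, limma-voom, a term for the title numbers, and leaving out each library; the comparison within libraries 1 to 4 and the alternatives for the contrast of title numbers were added after seeing the data. The planned count tests of edgeR and DESeq2 were not run; limma-voom on the recovered reads was the only count-based alternative. No paired analysis was possible because the groups share no replicate numbers. Adjusted calls in the family numbered 0 under every setting run, with a smallest adjusted p of 0.299 (without WT4). The 2 genes at an unadjusted p under 0.05 became 1 with library totals, 0 within libraries 1 to 4 and 0 to 2 when a library was left out. Among all tested genes the share at that level was 6.54% in the main fit and 6.51% with library totals. It was 1.2% within libraries 1 to 4 and 1.91% to 14.9% when a library was left out. The 20 positive differences became 32 with library totals and 6 to 55 when a library was left out. The count was 55 without WT26 and 6 without HIP30, each of which takes the higher library from 1 group only. Within libraries 1 to 4 it was 28. The cause of these changes was not tested. The difference of medians between large and small subunit, -0.09, ran from -0.16 to -0.04 when a library was left out. On the contrast of title numbers, 56 to 59 genes were higher without overlap under other scalings or without a library numbered 1 to 4. Leaving out WT26 or HIP30 sets 1 library against 4, an easier criterion, so no count is given. For the contrast of title numbers the share of all tested genes was not computed in these settings. The median stayed between 0.61 and 0.72 in every setting run.

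Of 36 named genes tested, 13 kept their direction in every setting run, Rpl30, Rpl22l1, Rps9, Rpl3 and Rpl5 among them. Direction here is the sign of the difference, and lack of overlap between the groups was not tested in these settings. Within libraries 1 to 4 the HIP difference turned to -0.064 for Rpl12, 0.035 for Rpl22, 0.022 for Rpl26, 0.037 for Rpl38, 0.18 for Rpl39, 0.037 for Rplp0, 0.0044 for Rplp1 and 0.0010 for Rps6. With library totals it turned to 0.019 for Rpl36a and 0.00033 for Rplp0. When a library was left out, signs turned for 21 genes, with ranges of -0.35 to 0.069 for Rpl10, -0.57 to 0.18 for Rpl11, -0.50 to 0.33 for Rpl13, -0.31 to 0.25 for Rpl22, -0.30 to 0.090 for Rpl26, -0.56 to 0.42 for Rpl27a, -0.37 to 0.31 for Rpl36a, -0.35 to 0.11 for Rpl36al, -0.75 to 0.0064 for Rpl38, -0.27 to 0.19 for Rpl39, -0.38 to 0.43 for Rpl41, -0.49 to 0.31 for Rpl7, -0.17 to 0.056 for Rplp0, -0.44 to 0.37 for Rplp1, -0.29 to 0.19 for Rps19, -0.0058 to 0.29 for Rps24, -0.46 to 0.62 for Rps27, -0.12 to 0.22 for Rps27a, -0.44 to 0.18 for Rps3, -0.028 to 0.29 for Rps4x and -0.38 to 0.26 for Rpsa. Low counts limit Rps19, Rpl7a, Rplp2 and Rpl38 most, at under 5 CPM on average. In all, 6 tested genes averaged under 5 CPM, Rpl8 and Rps4y2 among them. Why these levels were low was not tested.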
